A study of Mus musculus with 35 samples.

Results

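The genes described here are 34 genes of sterol and fatty acid synthesis in mouse bone marrow-derived macrophages (BMDMs): 19 enzymes of the mevalonate and cholesterol pathway, 6 genes of sterol sensing and 9 genes of fatty acid synthesis and desaturation. They were chosen by name, and 33 of the 34 had a mean of at least 1 FPKM (fragments per kilobase of transcript, scaled to the size of the library) over all libraries, as 11354 of the 47069 listed genes did. BMDMs of C57BL/6 mice, wild type or labelled AMPKa1-/- (the catalytic alpha1 subunit of AMP-activated protein kinase), were kept for 24 h in vehicle (DMSO) or in 1 of 5 treatments. These were the glucocorticoid dexamethasone (Dex) at 100 nM, bacterial lipopolysaccharide (LPS) at 100 ng/ml, damage-associated molecular patterns (DAMPs) at 1 µg/ml, and Dex together with either stimulus. Each group had 3 libraries, except LPS in wild type, which had 2 (replicates 2 and 3, with replicate 1 not analysed here), 17 wild type and 18 labelled AMPKa1-/- libraries in 12 groups. All cells were grown from bone marrow in medium conditioned by L929 cells, and the study's methods describe N as cultures from individual mice.

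Library totals, read from the steps of the FPKM scale, lay between 15835627 and 31952112 fragments, at which 1 fragment on a transcript of 1 kb was worth 0.0313 to 0.0631 FPKM. Prkaa1, which encodes AMPK alpha1, did not bear out the genotype label. In vehicle it had 15.9, 11.8 and 15.3 FPKM in the wild type libraries and 14.8, 16.5 and 15.4 FPKM in the libraries labelled AMPKa1-/-, and the groups overlapped. A gene total does not show whether a single deleted exon is missing, so the groups are called by their label throughout. The treatments did show in the genes they are known for. All 7 LPS response genes checked, among them Il6 and Ptgs2, rose with LPS in both genotypes, and all 6 glucocorticoid response genes checked, among them Tsc22d3 and Fkbp5, rose with Dex in both. Il6 and Ptgs2 had group means at or below 0.13 and 0.704 FPKM without LPS. They reached a mean of 1 FPKM only through the groups with LPS, so their calls are no separate check.

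The cells had the markers of macrophages. All 10 macrophage markers checked passed 1 FPKM, led by Lyz2, whose group means ran from 12857 FPKM in wild type LPS to 31379 FPKM in labelled AMPKa1-/- Dex. Their levels moved with treatment. With LPS 3 of the 10 rose and 5 fell in each genotype, where 19.9% and 20.2% of all genes tested rose and 35.8% and 44.1% fell. With Dex alone 2 rose and 3 fell in each (all genes 15.9% and 11.9%, 14.9% and 16%). With Dex on LPS 4 rose and 2 fell in each (all genes 16.6% and 19.3%, 17.5% and 18.4%). Adipocyte markers, which would bring their own lipid synthesis genes, were near 0: none of 6 passed 1 FPKM, and their summed level stayed at or below 0.155 FPKM in every library. None of 7 lymphoid and erythroid markers passed 1 FPKM. Of 9 neutrophil and precursor markers 4 passed, and their summed level was 5.26 to 19.4 FPKM in wild type vehicle and 114 to 134 FPKM in wild type LPS, nearly all of the latter Camp, while Ly6g, Mpo and Elane stayed at or below 0.2, 0.218 and 0.475 FPKM. Of the 4, Camp rose and Mmp8, the most abundant of them over all libraries, fell with LPS in both genotypes, Ltf also fell in labelled AMPKa1-/- BMDMs, and 3 of the 4 had log2 fold changes below 0 in each. Mmp8 had 9.31, 4.73 and 14.7 FPKM in wild type vehicle and 1.15 and 0.667 in LPS, and it rose with Dex alone and with Dex on DAMPs in both genotypes (log2 1.32 and 1.54 in wild type), where the other 3 were below 0 in wild type and not called. Camp and Ltf fell with Dex on DAMPs in labelled AMPKa1-/- BMDMs. Of 6 dendritic cell markers only Ccr7 passed, and it moved with LPS, from 0.0377 ± 0.0195 to 73.7 ± 51.2 FPKM (SD, n = 3 and 2), and Xcr1, below the level filter, had 0.366, 0.16 and 0.124 FPKM in wild type vehicle and 0.972 and 1.56 in LPS. Flt3 and Zbtb46 stayed at or below 0.444 and 0.686 FPKM. Of 8 fibroblast and stromal markers 5 passed, Acta2 being the most abundant over all libraries, with a summed level of 3.09 to 25.4 FPKM in wild type vehicle and 18.9 to 19.6 FPKM in wild type LPS. In labelled AMPKa1-/- BMDMs this sum did not overlap, at 2.98 to 5 FPKM in vehicle and 10.6 to 15.3 FPKM in LPS. Among the 5, Dcn (0.384, 0 and 0.245 FPKM in wild type vehicle, 3.45 and 3.01 in LPS) and Pdgfrb (0.271, 0.033 and 0.324 and 4.53 and 2.29 FPKM) rose with LPS in both genotypes, while Acta2 fell in wild type, from 3.65 ± 2.81 to 0.768 ± 0.114 FPKM (SD, n = 3 and 2). Dcn, Pdgfrb and Ccr7 stayed at or below 0.604, 0.624 and 0.157 FPKM in every library without LPS. They passed the level filter only through the groups with LPS, so their calls add nothing to these values. The median log2 fold changes of the 5 with LPS were 0.02 and -0.15. With Dex alone Acta2 rose in both genotypes, all 5 were above 0 in wild type (median 0.94) and the sum was 21.3 to 33.7 FPKM there and 6.73 to 14.6 FPKM in labelled AMPKa1-/- BMDMs. With Dex on DAMPs 3 of 5 rose in wild type, Acta2 and Col1a1 among them, and 0 of 5 in labelled AMPKa1-/- BMDMs (limma, 1 at an unadjusted p under 0.05). The part of these cells in the values below was not tested.

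Cholesterol is built from acetyl-CoA through mevalonate to isoprenoid units, which are joined into farnesyl diphosphate and squalene, and squalene is closed to lanosterol and then trimmed to cholesterol. The pathway is known to be governed by the transcription factor SREBP2, the product of Srebf2, which the escort protein SCAP carries out of the endoplasmic reticulum when sterols are low and which the INSIG proteins hold back when sterols are plentiful. SREBP1, the product of Srebf1, is better known for driving fatty acid synthesis. In macrophages both pathways are known to respond to Toll-like receptor signals, of which LPS is the classical example.

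LPS raised most of the sterol pathway in both genotypes. Of the 19 mevalonate and cholesterol genes, the same 17 rose against vehicle in wild type and in labelled AMPKa1-/- BMDMs, and Ebp and Dhcr7 were called in neither with all libraries, although Dhcr7 was called in labelled AMPKa1-/- BMDMs without LPS replicate 3. Over the 33 genes tested, 27 rose and 3 fell in wild type, where 19.9% of all 11354 genes tested rose and 35.8% fell (linear model on log2(FPKM + 1), adjusted p under 0.05). In the libraries labelled AMPKa1-/-, 26 rose and 4 fell, where 20.2% of all genes rose and 44.1% fell, and the 26 were all among the 27 of wild type. The median log2 fold change was 1.66 in wild type and 1.54 in labelled AMPKa1-/- BMDMs, beside -0.19 and -0.30 over all genes tested. Fdps, Fads2 and Elovl6 averaged 0.286, 0.346 and 0.771 FPKM over the 24 libraries without LPS and passed the level filter only through the LPS and LPS + Dex groups. Without these 3 genes, 24 of 30 rose and 3 fell in wild type and 23 rose and 4 fell in labelled AMPKa1-/- BMDMs, with 16 of 18 sterol genes higher in each. In whole cultures a change in the share of cells that make a transcript cannot be told apart from a change in each cell.

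**Figure D1:**
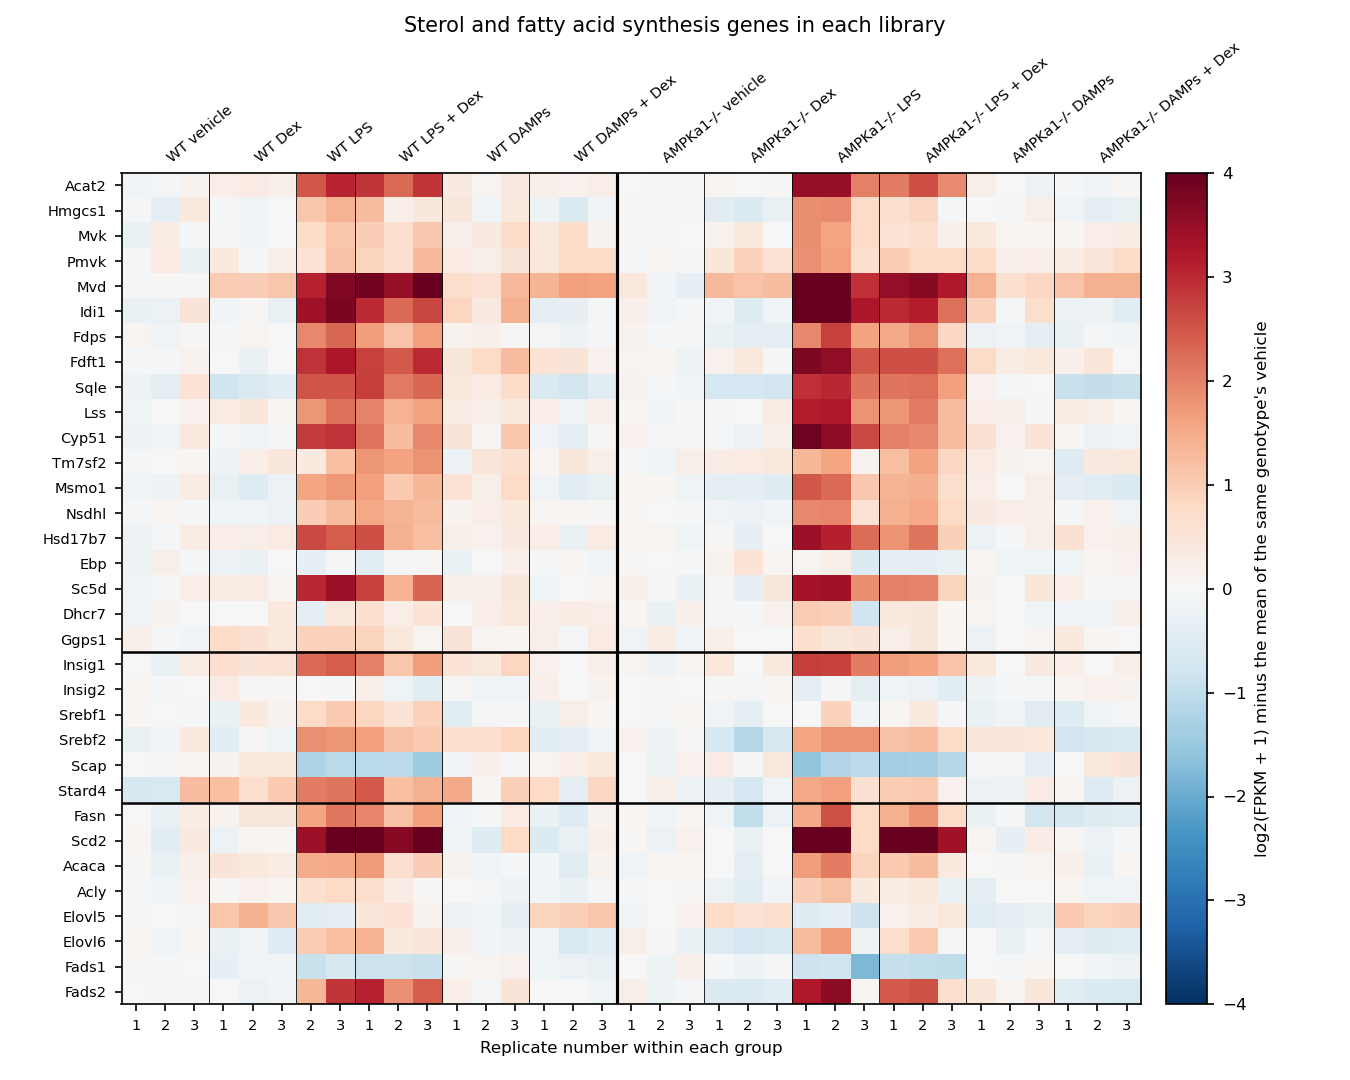
Difference of log2(FPKM + 1) from the mean of the same genotype's vehicle libraries for the 33 tested genes (rows, in the order of their roles) in each of the 35 libraries (columns, by group and replicate number). Red is higher and blue is lower, and values past 4 share the darkest colour. In the LPS and LPS + Dex columns most sterol genes and Scd2 are red and Scap and Fads1 are blue, and there the columns of replicate 3 labelled AMPKa1-/- are paler than those of replicates 1 and 2.

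At the entry of the pathway, Acat2 (ENSMUSG00000023832), the cytosolic thiolase that condenses acetyl-CoA, had 3.71, 3.84 and 4.59 FPKM in wild type vehicle and 27.1 and 40.3 FPKM in wild type LPS. In the libraries labelled AMPKa1-/- it had 4.67, 4.3 and 4.85 FPKM in vehicle and 61.4, 62.1 and 21.8 FPKM in LPS. Every LPS library lay above every vehicle library, and the log2 fold changes were 2.76 ± 0.27 (SE, adjusted p = 1.48e-09) in wild type and 3.0 ± 0.24 (adjusted p = 2.32e-11) in labelled AMPKa1-/- BMDMs. Hmgcs1, which makes HMG-CoA, rose less, by 1.25 and 1.5 on the log2 scale. Mvk and Pmvk, the kinases that phosphorylate mevalonate in turn, rose by 0.92 and 0.86 in wild type. Of the words of 50 bases in the Acat2 transcripts, 39.1% also stand in transcripts of Acat3, so part of its reads may be shared.

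Idi1 and Mvd, which make and rearrange the isoprenoid units, had the largest wild type changes of the sterol pathway. Mvd (ENSMUSG00000006517), which decarboxylates mevalonate diphosphate, had 5.16, 5.74 and 5.74 FPKM in wild type vehicle and 54.5 and 83.9 FPKM in wild type LPS, and 8.43, 5.46 and 4.58 and 116, 122 and 51.4 FPKM in the corresponding labelled AMPKa1-/- libraries. Its LPS and vehicle libraries were far apart in both genotypes, with log2 fold changes of 3.39 ± 0.29 (adjusted p = 7.17e-11) and 3.70 ± 0.26 (adjusted p = 8.42e-13). Idi1 (ENSMUSG00000058258), which interconverts the isoprenoid units, had 7.15, 7.51 and 13.4 FPKM in wild type vehicle and 104 and 134 FPKM in wild type LPS. The labelled AMPKa1-/- libraries had 9.93, 7.73 and 8.06 FPKM in vehicle and 223, 187 and 88.5 FPKM in LPS. The lowest LPS library of Idi1 was over every vehicle library, and the rises of 3.57 ± 0.34 (adjusted p = 6.74e-10) and 4.03 ± 0.30 (adjusted p = 4.76e-12) correspond to 11.9-fold and 16.3-fold on the FPKM + 1 scale. Fdps, which makes farnesyl diphosphate, was listed at only 0.107 to 8.71 FPKM over all libraries, 3 to 8 fragments in wild type vehicle and 95 to 147 in wild type LPS. Of its 50-base words 26.2% stand in transcripts of other genes, as do 17.7% of those of Idi1, so these levels are uncertain. Ggps1, which makes the geranylgeranyl diphosphate used to anchor small GTPases in membranes, rose by 0.92 in wild type and 0.53 in labelled AMPKa1-/- BMDMs.

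The steps to squalene and lanosterol rose together. Fdft1 (ENSMUSG00000021273, squalene synthase) had 2.6, 2.68 and 3.22 FPKM in wild type vehicle and 27.5 and 34.8 FPKM in wild type LPS, and 4.02, 3.89 and 3.04 and 60.2, 53.4 and 25.1 FPKM in labelled AMPKa1-/- BMDMs. The groups did not overlap, and the log2 fold changes were 3.06 ± 0.26 (adjusted p = 1.02e-10) and 3.26 ± 0.24 (adjusted p = 2.08e-12). Sqle (ENSMUSG00000022351, squalene epoxidase), a rate-controlling step after mevalonate, went from 4.28, 3.81 and 8.06 to 34 and 34.2 FPKM in wild type and from 7.34, 6.24 and 6.04 to 55.8, 59.7 and 31.9 FPKM in labelled AMPKa1-/- BMDMs, rises of 2.52 ± 0.24 and 2.69 ± 0.21 with no overlap of the groups. Lss (ENSMUSG00000033105), which closes the ring to lanosterol, went from 3.84, 4.33 and 5.1 to 17.2 and 23.7 FPKM in wild type. For labelled AMPKa1-/- BMDMs it went from 4.17, 3.54 and 4.13 to 42.7, 44.1 and 16.1 FPKM, and the rises were 1.98 ± 0.28 and 2.71 ± 0.25 (adjusted p = 7.54e-07 and 2.51e-10).

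After lanosterol the enzymes divided. Cyp51 (ENSMUSG00000001467), the lanosterol demethylase, had 7.66, 7.9 and 12.3 FPKM in wild type vehicle and 68.6 and 73.4 FPKM in wild type LPS, and 8.62, 7.03 and 7.04 and 126, 101 and 52.1 FPKM in labelled AMPKa1-/- BMDMs. It rose by 2.84 ± 0.30 (adjusted p = 5.71e-09) and 3.37 ± 0.27 (adjusted p = 1.64e-11), with no overlap of the groups. Sc5d, a desaturase of the last steps, rose by 3.24 in wild type, Hsd17b7, a ketoreductase, by 2.52, Msmo1, a methyl oxidase, by 1.66, and Nsdhl, the dehydrogenase beside it, by 1.12. Tm7sf2, a sterol reductase, rose least of the called enzymes in wild type, by 0.80 (adjusted p = 0.0358), a call lost with the replicate block, with no level filter and without any 1 of the vehicle libraries or LPS replicate 3. Ebp, the sterol isomerase, had 42.7, 58.4 and 47.1 FPKM in wild type vehicle and 39 and 47.4 FPKM in wild type LPS, with a 95% interval of its log2 fold change of -0.57 to 0.20. For Dhcr7, the last reductase of one branch, this interval was -0.63 to 0.66. Neither gene passed the test in either genotype with all libraries. The value of Dhcr7 in labelled AMPKa1-/- BMDMs rests on 1 library, at 0.39 with LPS replicate 3 and 0.98 without it (limma, adjusted p = 7.23e-05).

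The sensing genes did not move one way. Srebf2 (ENSMUSG00000022463) had 10.2, 11.9 and 17.4 FPKM in wild type vehicle and 47.8 and 45.9 FPKM in wild type LPS, a rise of 1.79 ± 0.19 (adjusted p = 8.22e-09), and rose by 1.72 ± 0.17 in labelled AMPKa1-/- BMDMs. Insig1 (ENSMUSG00000045294), itself a known SREBP target, had 15.6, 12.8 and 19.5 FPKM in wild type vehicle and 79.5 and 88.6 FPKM in wild type LPS. Its labelled AMPKa1-/- libraries had 17.4, 13.8 and 17.4 FPKM in vehicle and 115, 112 and 70.2 FPKM in LPS, and the rises were 2.34 ± 0.23 and 2.52 ± 0.20 (adjusted p = 8.74e-10 and 1.66e-11) with no overlap. Insig2 had 44.2 and 42.7 FPKM in wild type LPS, within its vehicle range, and its small fall in labelled AMPKa1-/- BMDMs (-0.27 ± 0.12, adjusted p = 0.0464) was 0.00815 on the log2 scale once libraries were centred on one median and was not called without any 1 of the vehicle libraries or LPS replicate 1 or 3. Scap (ENSMUSG00000032485) fell in both genotypes, from 40.8, 39.4 and 43.3 to 17.1 and 19.1 FPKM in wild type and from 46, 39.8 and 51.8 to 14.5, 19.8 and 21.7 FPKM in labelled AMPKa1-/- BMDMs. Every LPS library of Scap lay below every vehicle library, and it fell by 1.15 ± 0.17 and 1.26 ± 0.16 (adjusted p = 2.71e-06 and 6.66e-08). Stard4, a cytosolic sterol carrier, rose by 2.10 ± 0.47 and 1.26 ± 0.42, with wild type vehicle libraries as far apart as 4.26, 4.41 and 18.2 FPKM, and in labelled AMPKa1-/- BMDMs it was not called without LPS replicate 2. Srebf1 was higher in wild type LPS (66.5 and 80.7 FPKM against 40.5, 38.4 and 37.4 in vehicle), a rise of 0.90 ± 0.23, and in labelled AMPKa1-/- BMDMs the change was 0.27 ± 0.20 (adjusted p = 0.244).

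Of the 8 fatty acid genes tested, 6 rose with LPS and 2 fell, the same in both genotypes, and of the 6 left without Elovl6 and Fads2, 4 rose and 2 fell. Scd2 (ENSMUSG00000025203), a stearoyl-CoA desaturase that makes monounsaturated fatty acids, had the largest log2 fold change of the 33 genes in wild type. It had 1.93, 1.08 and 2.62 FPKM in wild type vehicle and 29.1 and 44.1 FPKM in wild type LPS, and 1.19, 0.811 and 1.38 and 38.4, 71.1 and 2.69 FPKM in labelled AMPKa1-/- BMDMs, where replicate 3 with LPS lay far below replicates 1 and 2 and above every vehicle library. The log2 fold changes were 3.71 ± 0.66 (adjusted p = 2.18e-05) and 3.37 ± 0.59 (adjusted p = 1.4e-05). Its neighbour Scd1 was the 1 gene below the level filter, at 0 to 1.58 FPKM, with 0 to 5 fragments in wild type vehicle and 9 to 30 in wild type LPS, and it was not tested. Both lie on chromosome 19, Scd2 at 44293674 to 44306864 on the plus strand and Scd1 at 44394455 to 44407879 on the minus strand (GRCm38).

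Fasn (fatty acid synthase) rose by 1.85 ± 0.35 in wild type and 1.62 ± 0.31 in labelled AMPKa1-/- BMDMs, and Acaca (acetyl-CoA carboxylase), the enzyme that commits carbon to fatty acids and a known AMPK substrate, by 1.5 ± 0.28 and 1.54 ± 0.25. Acly, which supplies cytosolic acetyl-CoA from citrate to both pathways, rose by 0.72 and 0.85. Elovl6, which lengthens palmitate, rose by 1.10 and 0.92 from about 1 FPKM, and is 1 of the 3 genes that passed the level filter through LPS. Fads2 (delta-6 desaturase), which also passed the level filter through LPS, went from 0.216, 0.197 and 0.266 to 2.09 and 7.93 FPKM in wild type, a rise of 2.10 ± 0.61 (adjusted p = 0.0048), and had 0.848, 0.362 and 0.535 FPKM in labelled AMPKa1-/- vehicle and 13.4, 18.2 and 0.667 FPKM in LPS, where LPS replicate 3 lay within the range of vehicle. Fads1 (delta-5 desaturase) went from 28.3, 26.7 and 27.2 to 14.2 and 17 FPKM, and fell by 0.78 ± 0.17 (adjusted p = 0.000396). They are neighbours on chromosome 19, Fads2 at 10062765 to 10101746 on the minus strand and Fads1 at 10182888 to 10196877 on the plus strand. Elovl5 (ENSMUSG00000032349), which lengthens polyunsaturated fatty acids, fell by 0.42 ± 0.13 in wild type and 0.57 ± 0.12 in labelled AMPKa1-/- BMDMs, and the wild type fall was not called after median centring (log2 -0.27, adjusted p = 0.0593). It was also not called without LPS replicate 2. In wild type the rises of Elovl6, Fads2 and the sterol gene Pmvk were not called without LPS replicate 3, and in labelled AMPKa1-/- BMDMs that of Elovl6 was not without vehicle replicate 3 or LPS replicate 1 or 2. Of the 50-base words of Acaca 30.4% stand in transcripts of other genes.

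**Figure D2:**
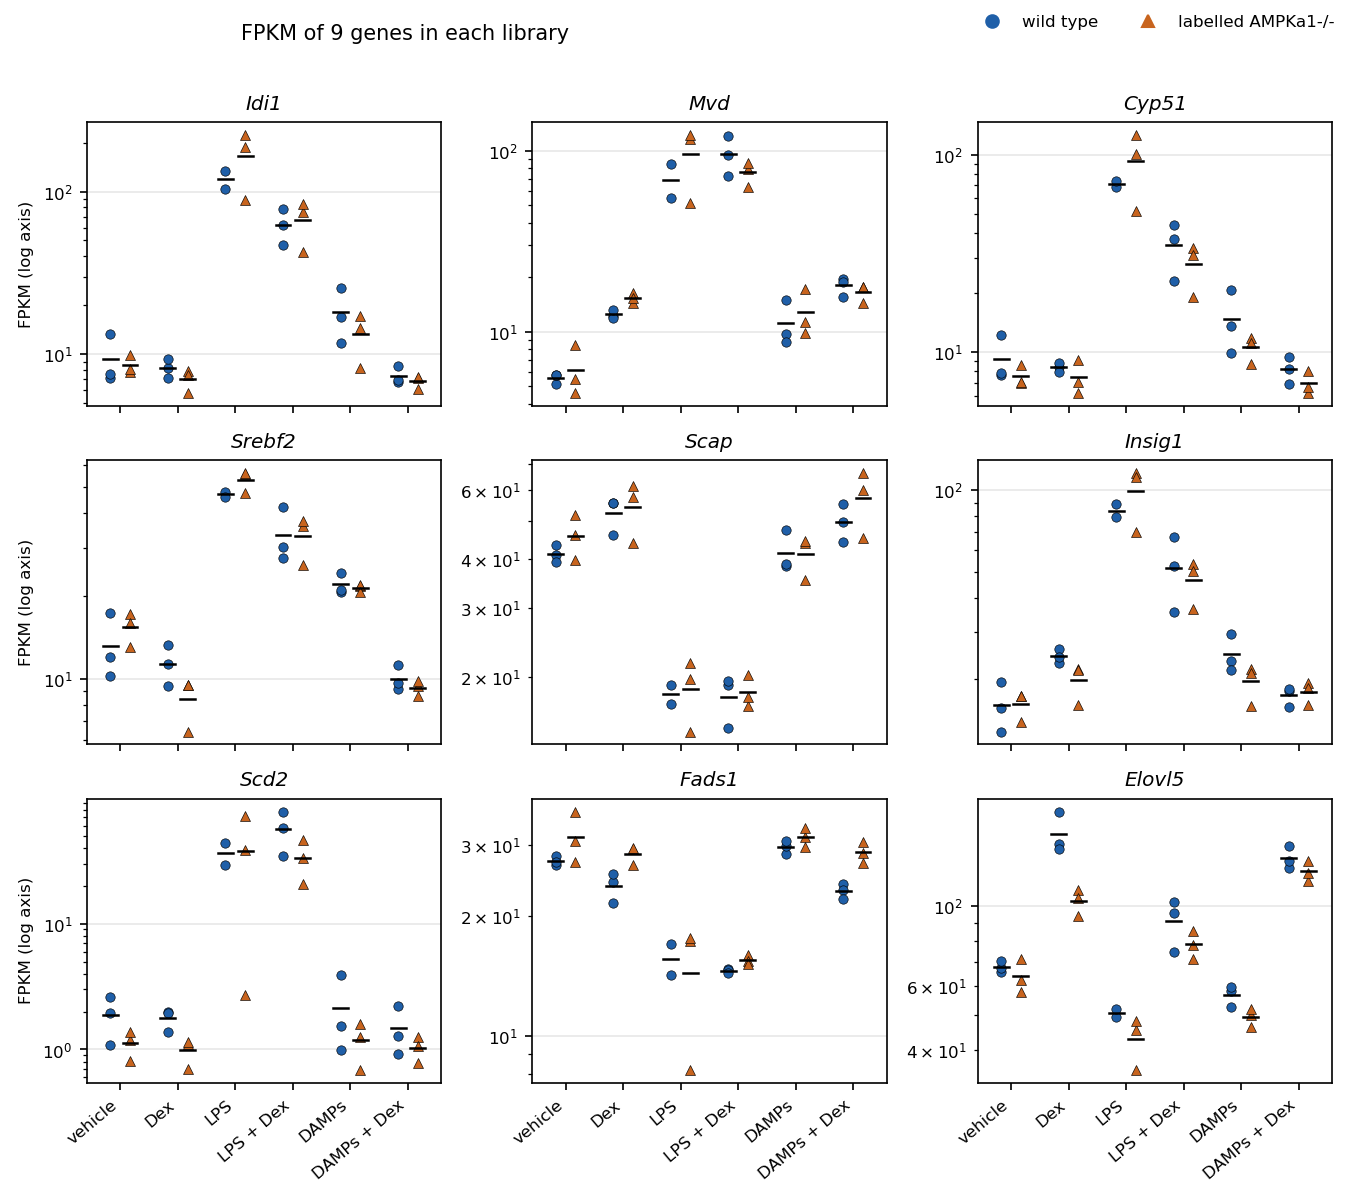
FPKM on a log axis of 9 genes in each library, by treatment, with wild type libraries as circles and libraries labelled AMPKa1-/- as triangles, and a line at each group mean. Idi1, Mvd, Cyp51, Srebf2, Insig1 and Scd2 stand higher in LPS than in vehicle, Scap and Fads1 stand lower, and Elovl5 stands higher in each group with Dex than in its partner without Dex.

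Replicate 3 of the labelled AMPKa1-/- LPS libraries stood apart from replicates 1 and 2. It had the lowest value of its group for 30 of the 33 genes, where it was lowest for 39.95% of all genes tested, and replicate 3 of labelled AMPKa1-/- LPS + Dex was lowest for 30 of the 33, beside 58% of all genes. Dhcr7 shows the spread, with 30.3, 28.5 and 7.88 FPKM in labelled AMPKa1-/- LPS and 15.1, 11.8 and 16.6 FPKM in vehicle. Its log2 fold change was 0.39 ± 0.28 (adjusted p = 0.226) with all libraries and 0.98 (adjusted p = 7.23e-05) without that library, and that of Scd2 went from 3.37 to 4.66. In vehicle and Dex the replicate 3 libraries labelled AMPKa1-/- did not stand apart, being lowest for 10 and 6 of the 33 genes. Replicate 3 of labelled AMPKa1-/- LPS was also the 1 LPS library whose gene with the highest FPKM was not Saa3 but Fth1. Other libraries were lowest for many of the genes: replicate 2 of wild type LPS + Dex for 23 of 33 (beside 17.3% of all genes), replicate 2 of labelled AMPKa1-/- Dex for 24 (beside 57.5%) and replicate 2 of the 2 wild type LPS libraries for 29 (beside 43.5%). Srebf2 did not share the pattern in LPS, at 47.4, 55.4 and 55.9 FPKM. Without both replicate 3 libraries of LPS and LPS + Dex, 30 of the 33 genes were called for LPS against vehicle, 27 higher and 3 lower.

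**Figure D3:**
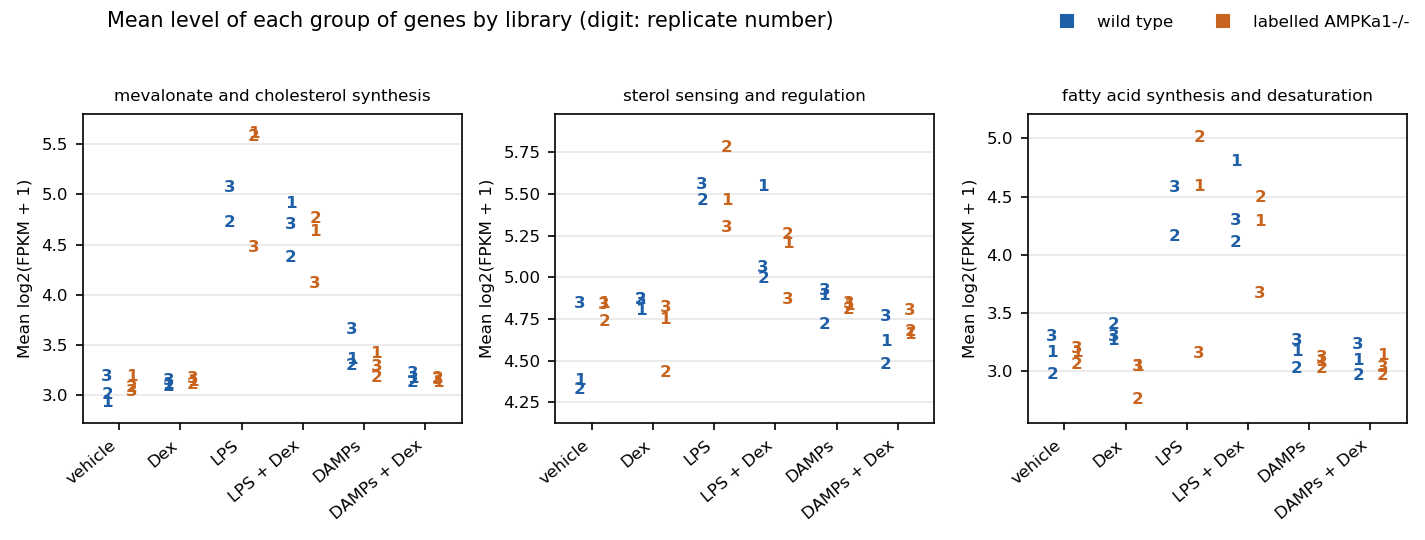
Mean log2(FPKM + 1) over the 19 mevalonate and cholesterol genes, the 6 sensing genes and the 8 tested fatty acid genes in each library, by treatment, with digits for replicate numbers and colours for genotype. In the left panel replicates 1 and 2 of labelled AMPKa1-/- LPS lie at 5.6 and 5.58 and replicate 3 at 4.47, while vehicle libraries of both genotypes lie between 2.93 and 3.19.

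The promoters of the enzymes that moved most are shown because these genes rose together. RefSeq windows of 250 bases before to 50 bases after the start (GRCm38.p6) were present for 27 of the 34 genes, and both strands were searched for TCACNCCAC (a form of the sterol response element bound by SREBPs), CCAAT (the box bound by NF-Y, a known partner of SREBPs) and CACGTG (an E-box). CCAAT was in 22 of the 27 genes, beside 41.1% of 27025 genes with a window, CACGTG was in 6 of 27, beside 8.09%, and TCACNCCAC was in 1, Hmgcs1, beside 1.44%. The genes are counted once if any of their windows holds the letters. The 250 bases before the start follow for Idi1 (plus strand, chr13:8885356-8885605), Mvd (minus strand, chr8:122443423-122443672), Sc5d (minus strand, chr9:42264301-42264550) and Cyp51 (minus strand, chr5:4104698-4104947), which are, with Scd2 and Fdft1, the 6 with the largest wild type changes, and for Hmgcs1 (plus strand, chr13:119690101-119690350), shown for its TCACNCCAC after its sequence was seen. Capitals mark the CCAAT box in either orientation, the E-box in Sc5d and the sterol response element form in Hmgcs1.
Idi1: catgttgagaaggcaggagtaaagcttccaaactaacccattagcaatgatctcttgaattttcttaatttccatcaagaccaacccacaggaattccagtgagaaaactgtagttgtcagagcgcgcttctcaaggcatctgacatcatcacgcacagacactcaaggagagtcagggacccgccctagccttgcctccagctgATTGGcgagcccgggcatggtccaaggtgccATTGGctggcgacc
Mvd: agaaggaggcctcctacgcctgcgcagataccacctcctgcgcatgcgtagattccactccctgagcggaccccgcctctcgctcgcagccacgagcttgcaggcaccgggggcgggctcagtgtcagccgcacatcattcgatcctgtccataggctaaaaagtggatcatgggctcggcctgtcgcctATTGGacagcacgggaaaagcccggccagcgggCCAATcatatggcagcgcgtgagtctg
Sc5d: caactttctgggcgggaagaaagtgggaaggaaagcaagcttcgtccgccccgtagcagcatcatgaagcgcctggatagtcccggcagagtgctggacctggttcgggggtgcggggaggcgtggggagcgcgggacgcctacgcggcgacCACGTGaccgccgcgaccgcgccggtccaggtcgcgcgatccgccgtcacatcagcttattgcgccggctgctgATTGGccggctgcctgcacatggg
Cyp51: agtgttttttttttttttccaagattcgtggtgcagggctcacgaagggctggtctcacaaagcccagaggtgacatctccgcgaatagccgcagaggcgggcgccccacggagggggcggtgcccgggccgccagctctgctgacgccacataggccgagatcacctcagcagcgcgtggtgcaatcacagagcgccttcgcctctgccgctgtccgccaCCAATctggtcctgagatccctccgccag
Hmgcs1: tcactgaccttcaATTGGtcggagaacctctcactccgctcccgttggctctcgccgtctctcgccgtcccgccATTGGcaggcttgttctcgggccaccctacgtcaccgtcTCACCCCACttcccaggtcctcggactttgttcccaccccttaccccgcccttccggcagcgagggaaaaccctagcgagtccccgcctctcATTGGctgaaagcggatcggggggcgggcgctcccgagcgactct
Idi1 and Mvd each have 2 CCAAT boxes in the last 60 bases, first bases at -45 and -14 in Idi1 and at -60 and -27 in Mvd. Sc5d has 1 at -24 and Cyp51 1 at -29. In Hmgcs1 the sterol response element form begins at -137 between CCAAT boxes at -176 and -45, with a further one at -237. A match is a description of the letters and no evidence of binding in these cells.

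Dex alone changed few of these genes. In wild type 4 rose and 1 fell, where 15.9% of all genes tested rose and 14.9% fell, and in labelled AMPKa1-/- BMDMs 3 rose and 2 fell, where 11.9% and 16% did. The median log2 fold changes of 0.10 and -0.09 lay beside 0.05 and -0.05 over all genes. Called in both genotypes were Mvd and Elovl5, which rose, and Sqle, which fell. Mvd had 12.2, 11.9 and 13.3 FPKM in wild type Dex and 16.3, 14.3 and 15.3 FPKM in labelled AMPKa1-/- Dex, above every vehicle library, with log2 fold changes of 1.04 ± 0.26 (adjusted p = 0.00293) and 1.22 ± 0.26 (adjusted p = 0.000603). Elovl5 went from 65.9, 67.4 and 70.6 to 149, 183 and 145 FPKM in wild type and from 57.7, 62.5 and 71.5 to 111, 94.2 and 105 FPKM in labelled AMPKa1-/- BMDMs, rises of 1.21 ± 0.12 (adjusted p = 9.94e-09) and 0.69 ± 0.12 (adjusted p = 6.48e-05).

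Sqle had 2.5, 3.06 and 3.48 FPKM in wild type Dex and 3.57, 3.59 and 3.45 FPKM in labelled AMPKa1-/- Dex, each below every vehicle library of its genotype. It fell by 0.62 ± 0.21 (adjusted p = 0.0292) and 0.73 ± 0.21 (adjusted p = 0.011). Insig1 and Ggps1 rose in wild type, by 0.59 ± 0.20 and 0.59 ± 0.17. In labelled AMPKa1-/- BMDMs Pmvk rose by 0.65 ± 0.24 and Srebf2 fell by 0.80 ± 0.17 on the log2 scale (adjusted p = 0.000802), with 9.49, 6.42 and 9.47 FPKM in Dex and 17.2, 13 and 15.9 in vehicle. The wild type change of Srebf2 was -0.18 ± 0.17 (adjusted p = 0.443). The wild type call of Sqle was lost without vehicle replicate 3 or Dex replicate 1 or 2, that of Insig1 without vehicle replicate 1 or 2 or Dex replicate 1 or 3, and the labelled AMPKa1-/- call of Pmvk without any 1 of the vehicle libraries or Dex replicate 2 or 3. Mvd and Sqle, enzymes of a single pathway, thus moved in opposite directions under the same treatment.

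**Figure D4:**
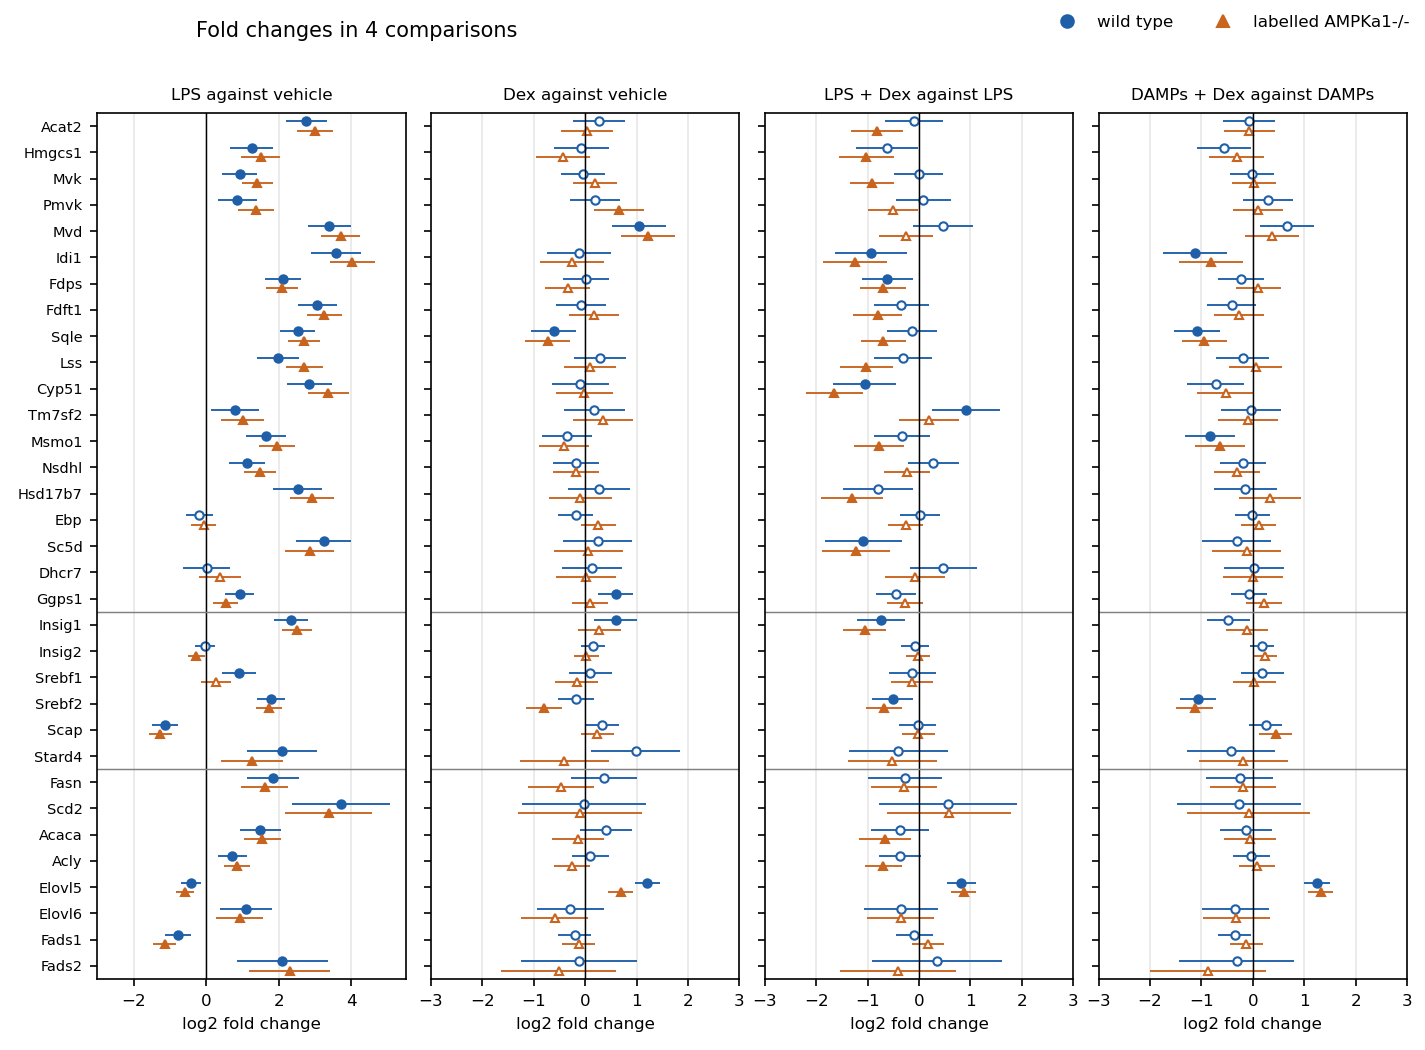
Log2 fold changes (points) with 95% intervals (lines) of the 33 tested genes in 4 comparisons, wild type as circles and labelled AMPKa1-/- as triangles, filled where the adjusted p was under 0.05. LPS moved most genes to the right in both genotypes, Dex alone moved few, and Elovl5 is to the right of 0 in each of the 3 comparisons with Dex.

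The comparison of LPS + Dex with LPS asks what the glucocorticoid changes in activated cells. In wild type 6 genes fell, namely Idi1, Fdps, Cyp51, Sc5d, Insig1 and Srebf2, and 2 rose, Tm7sf2 and Elovl5, where 17.5% of all genes tested fell and 16.6% rose. The share of 6 in 33 is near that of all genes, and without the 3 genes that passed the level filter through LPS, Fdps among them, 5 of 30 fell. Of the same 33 genes, 16 fell in labelled AMPKa1-/- BMDMs, where 18.4% of all genes did, and only Elovl5 rose, where 19.3% did. The 6 wild type falls were all among the 16, of which 15 are left without Fdps. The median log2 fold changes were -0.27 in wild type and -0.52 in labelled AMPKa1-/- BMDMs, beside -0.03 and 0.01 over all genes tested. Markers of other cells moved too. The neutrophil and precursor sum was 114 to 134 FPKM in wild type LPS and 34.3 to 52.9 FPKM in LPS + Dex. In labelled AMPKa1-/- BMDMs it was 102 to 122 and 35.2 to 43.4 FPKM. Mean Ccr7 went from 73.7 to 0.86 FPKM in wild type and from 63.8 to 0.72 FPKM in labelled AMPKa1-/-. The fibroblast and stromal sum was 18.9 to 19.6 and 6.75 to 14.1 FPKM in wild type. It overlapped in labelled AMPKa1-/- BMDMs. The part of these cells was not tested.

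Idi1 had 78.1, 46.7 and 62.3 FPKM in wild type LPS + Dex, below both LPS libraries and above every vehicle library, and 74.6, 83.8 and 42.7 FPKM in labelled AMPKa1-/- LPS + Dex. It fell from LPS by 0.94 ± 0.34 (adjusted p = 0.0327) and 1.25 ± 0.30 (adjusted p = 0.00158). Cyp51 had 44.2, 22.8 and 37.3 FPKM in wild type and 33.8, 31.1 and 19 FPKM in labelled AMPKa1-/- LPS + Dex, and fell by 1.06 ± 0.30 (adjusted p = 0.00693) and 1.65 ± 0.27 (adjusted p = 1.45e-05). Both genes thus stayed between their LPS and vehicle levels. Insig1 had 66.9, 35.5 and 52.6 FPKM in wild type and 53.3, 50.3 and 36.4 FPKM in labelled AMPKa1-/- LPS + Dex, and fell by 0.73 ± 0.23 and 1.06 ± 0.20, and Srebf2 fell by 0.51 ± 0.19 and 0.68 ± 0.17 on the log2 scale. Sc5d fell by 1.08 and 1.23.

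Most other sterol genes did not pass the test in wild type. Mvd had 95, 72.5 and 120.3 FPKM in wild type LPS + Dex, overlapping LPS, with a 95% interval of the log2 difference of -0.12 to 1.06. Acat2 had 35.4, 23.4 and 35.7 FPKM in wild type (-0.09 ± 0.27, adjusted p = 0.833) and 22.9, 32.3 and 19.8 FPKM in labelled AMPKa1-/- LPS + Dex (-0.81 ± 0.24, adjusted p = 0.00908). Fdft1 had 24.2, 20.1 and 29.1 and 26.8, 26.7 and 20.1 FPKM, Sqle 41.1, 24.8 and 29.1 and 32.4, 33.7 and 22.2 FPKM, and Lss 20.6, 13 and 15.5 and 15.6, 19.7 and 10.6 FPKM in wild type and labelled AMPKa1-/- LPS + Dex. These fell in labelled AMPKa1-/- BMDMs, as did Hmgcs1, Mvk, Msmo1, Hsd17b7, Acaca and Acly, and passed the test in wild type in no case. Scd2 with LPS + Dex overlapped LPS, at 77.5, 34.2 and 57.6 FPKM in wild type and 33.2, 46.2 and 20.6 FPKM in labelled AMPKa1-/- BMDMs, with wide 95% intervals of the log2 difference of -0.78 to 1.91 and -0.63 to 1.78. The direction in labelled AMPKa1-/- BMDMs turned on replicate 3: within replicates 1, 2 and 3 the log2 difference was -0.2, -0.61 and 2.55. Scap overlapped its LPS level, with 19.1, 19.6 and 14.8 FPKM in wild type LPS + Dex and a 95% interval of -0.39 to 0.33.

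Elovl5 and Tm7sf2 went the other way. Elovl5 had 49.3 and 51.7 FPKM in wild type LPS and 95.8, 103 and 74.6 FPKM in wild type LPS + Dex, with no overlap, and rose by 0.83 ± 0.13 (adjusted p = 1.47e-05) in wild type and 0.87 ± 0.12 (adjusted p = 1.04e-06) in labelled AMPKa1-/- BMDMs. Tm7sf2 had 12 and 21.6 FPKM in wild type LPS and 32.3, 28.9 and 33.2 FPKM in wild type LPS + Dex, a rise of 0.92 ± 0.32 (adjusted p = 0.0274), and its change in labelled AMPKa1-/- BMDMs was 0.19 ± 0.29 (adjusted p = 0.65). The wild type counts rest on 2 LPS libraries: leaving out 1 library at a time gave 2 to 11 called genes in place of 8, with 2 when LPS replicate 3 or LPS + Dex replicate 2 was dropped, 4 when LPS replicate 2 was, 5 when LPS + Dex replicate 3 was and 11 when LPS + Dex replicate 1 was, and only Elovl5 was called in every setting. In labelled AMPKa1-/- BMDMs the 17 calls became 24 without LPS replicate 3, 12 without LPS replicate 1, LPS replicate 2 or LPS + Dex replicate 3, and 21 without both replicate 3 libraries. With only the groups compared in the fit they were fewer than 12, as given below with the other processing alternatives.

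Against vehicle, most of the genes were still higher after LPS + Dex, several of them at levels well below those of LPS alone. In wild type 27 genes were higher and 2 lower, where 17.2% of all genes tested were higher and 37% lower, and in labelled AMPKa1-/- BMDMs 22 were higher and 3 lower, where 16.7% and 40.8% were. Without the 3 genes that passed the filter through LPS, 24 of 30 were higher in wild type and 20 in labelled AMPKa1-/- BMDMs. The median log2 fold changes were 1.40 and 1.17. Scd2 (4.28 ± 0.59 and 3.95 ± 0.59) and Mvd (3.86 ± 0.26 and 3.45 ± 0.26) led in both genotypes. Cyp51 had means of 9.29, 71 and 34.7 FPKM in wild type vehicle, LPS and LPS + Dex, and 7.57, 92.9 and 28 FPKM in labelled AMPKa1-/- BMDMs. Hmgcs1, with 17.2, 53.8 and 25.3 FPKM in the latter, was no longer called against vehicle there. Scap and Fads1 were lower in both. The wild type calls of Elovl6, Hmgcs1 and Ggps1 and the labelled AMPKa1-/- calls of Insig2 and Mvk were each lost in at least 4 alternatives, among them leaving out single vehicle libraries. Elovl5, lower than vehicle after LPS, was higher than vehicle after LPS + Dex, by 0.40 ± 0.12 and 0.29 ± 0.12 (adjusted p = 0.00556 and 0.0383), of which the second was not called in 7 alternatives, among them leaving out vehicle replicate 1 or 2 or LPS + Dex replicate 2 or 3.

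DAMPs moved 1 of the 33 genes in each genotype, and not the same one. In wild type Srebf2 rose, where 1.22% of all genes tested rose and 0.793% fell, from 10.2, 11.9 and 17.4 to 20.7, 21 and 24.3 FPKM (0.73 ± 0.17, adjusted p = 0.0237). Among labelled AMPKa1-/- BMDMs Mvd rose, where 1.89% rose and 2.24% fell, from 8.43, 5.46 and 4.58 to 17.3, 9.85 and 11.3 FPKM (0.95 ± 0.26, adjusted p = 0.029). The same genes in the other genotype had changes of 0.86 ± 0.26 for Mvd in wild type (adjusted p = 0.0894) and 0.46 ± 0.17 for Srebf2 in labelled AMPKa1-/- BMDMs (adjusted p = 0.165). Both calls rest on single libraries: that of Srebf2 was lost without vehicle replicate 1 or 2 or DAMPs replicate 3, and that of Mvd without vehicle replicate 2 or 3 or DAMPs replicate 1 or 3. Of the 19 sterol enzymes, 18 lay above 0 in wild type, with a median of 0.29 beside -0.03 over all genes, and the largest was Idi1 at 0.87 ± 0.30 (adjusted p = 0.185). In labelled AMPKa1-/- BMDMs 14 of the 19 lay above 0.

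Dex on top of DAMPs changed the same 5 genes in both genotypes. Idi1, Sqle, Msmo1 and Srebf2 fell and Elovl5 rose, where 12.6% of all genes tested fell and 11.7% rose in wild type and 12.2% and 13.1% did in labelled AMPKa1-/- BMDMs. The share of 4 falls in 33 genes is near that of all genes in each genotype, and the share of rises is below it. Of all 11354 genes tested, 1123 fell and 1013 rose in both genotypes, so calls shared by the genotypes are not particular to these genes. Scap also rose in the latter, by 0.45 ± 0.16. Srebf2 went from 20.7, 21 and 24.3 to 9.18, 9.61 and 11.2 FPKM in wild type and from 21.7, 21.9 and 20.7 to 8.61, 9.38 and 9.83 FPKM in labelled AMPKa1-/- BMDMs. The groups were well apart, and it fell by 1.07 ± 0.17 (adjusted p = 2.58e-05) and 1.13 ± 0.17 (adjusted p = 1.18e-05). Sqle fell by 1.08 ± 0.21 and 0.94 ± 0.21, Idi1 by 1.13 ± 0.30 and 0.82 ± 0.30, and Msmo1 by 0.83 ± 0.24 and 0.65 ± 0.24 on the log2 scale. Elovl5 rose from 58.1, 59.7 and 52.5 to 128, 133 and 147 FPKM in wild type (1.25 ± 0.12, adjusted p = 4.85e-09) and by 1.32 ± 0.12 in labelled AMPKa1-/- BMDMs. The calls of Idi1 and Msmo1 were lost in wild type without DAMPs replicate 3 and in labelled AMPKa1-/- BMDMs in 8 alternatives each, most of them leaving out a single library, and that of Scap was lost in 7 alternatives. In wild type the fit with the replicate number as a block called 8 genes in place of 5. The summed fibroblast and stromal markers moved with this comparison in wild type, at 2.76 to 11.2 FPKM in wild type DAMPs and 18.5 to 25.2 FPKM in DAMPs + Dex, and 3.59 to 6.48 and 5.18 to 11.2 FPKM in labelled AMPKa1-/- BMDMs, where the groups overlap, and their part was not tested.

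Elovl5, Srebf2 and Idi1 had calls under Dex in the presence of each stimulus in both genotypes. For Dex on vehicle, on LPS and on DAMPs the log2 fold changes of Elovl5 were 1.21, 0.83 and 1.25 in wild type and 0.69, 0.87 and 1.32 in labelled AMPKa1-/- BMDMs. Those of Srebf2 were -0.18, -0.51 and -1.07 in wild type and -0.80, -0.68 and -1.13 in labelled AMPKa1-/- BMDMs, of which only the first was not called. Those of Idi1 were -0.13, -0.94 and -1.13 in wild type and -0.26, -1.25 and -0.82 in labelled AMPKa1-/- BMDMs, with Dex on vehicle not called in either. For Dex on LPS, the wild type call of Srebf2 was lost in 10 alternatives, the replicate block and quantile normalization among them. That of Idi1 was lost there in 6, and the labelled AMPKa1-/- call of Srebf2 in 1. For Dex on DAMPs, the call of Idi1 was lost in 1 alternative in wild type and in 8 in labelled AMPKa1-/- BMDMs.

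No difference between the genotypes passed the limma test. Neither in vehicle nor in any of the 6 responses was 1 of the 33 genes called, where 0.432% of all genes tested differed between the genotypes in vehicle, 0.0793% in the response to LPS + Dex and 0% in the other 5 responses. At an unadjusted p under 0.05 there were 1, 4, 1, 1, 0 and 0 of the 33 genes for LPS, Dex, LPS + Dex against LPS, LPS + Dex against vehicle, DAMPs, and DAMPs + Dex against DAMPs, beside 514, 2441, 311, 432, 66 and 234 of all 11354 genes in the same order. The smallest was that of Elovl5 for Dex, whose rise was the larger in wild type (log2, labelled AMPKa1-/- minus wild type, -0.52 ± 0.17, adjusted p = 0.194). For LPS + Dex against LPS it was that of Mvk (-0.90 ± 0.31, adjusted p = 1), so the 8 calls of wild type and 17 of labelled AMPKa1-/- BMDMs are not shown to differ. In that response 27 of the 33 differences lay below 0 and 6 above, with a median of -0.32. All genes had a median of 0.04, with 4866 of 11354 below 0. Of the 19 sterol genes 18 lay below 0 (median -0.51). These signs were not tested. The 95% intervals of the median gene reached 0.49 to each side in vehicle, 0.73 in the 2 responses compared through LPS alone and 0.69 in the other 4.

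The other genes whose levels followed the sterol enzymes most closely were found by the correlation of each tested gene with the mean z-score of the 19 enzymes over the 35 libraries. The 10 highest were Ffar2, Aacs, Pgm1, Dennd3, Fam162a, Bckdhb, Acsl5, Cyb5b, Gys1 and Mlx, with r from 0.934 to 0.964, given as a description because the libraries share the LPS contrast. Ffar2, a receptor for short-chain fatty acids, went from a mean of 0.16 FPKM in wild type vehicle to 8.56 in LPS and 4.11 in LPS + Dex. Ffar2 and Dennd3 had means of 0.146 and 0.327 FPKM in labelled AMPKa1-/- vehicle, and Dennd3 0.241 FPKM in wild type vehicle. Both may have passed the level filter through the groups with LPS. Aacs, which turns acetoacetate into a precursor for sterols and fatty acids, went from 17.9 to 38.7 FPKM. Acsl5, which activates long-chain fatty acids, went from 34.6 to 200.2 FPKM, and Cyb5b, an electron donor, from 13.9 to 27.7 FPKM. Among the 33 genes, each sterol gene's r with the mean of the other 18 ran from -0.19 for Ebp and 0.54 for Dhcr7 to 0.98 for Lss, and Scap (-0.89) and Fads1 (-0.74) ran opposite to the sterol mean.

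Of 13 tested other enzymes and partners of sterol and isoprenoid synthesis (16 listed), 4 rose and 5 fell with LPS in wild type and in labelled AMPKa1-/- BMDMs, where 19.9% of all genes rose and 35.8% fell in wild type and 20.2% and 44.1% did in labelled AMPKa1-/- BMDMs, with median log2 fold changes of -0.08 and -0.25. Por, the reductase that feeds electrons to Cyp51 and Sqle, had a mean of 372 ± 43.9 FPKM in wild type vehicle and 113 ± 16.8 in LPS (SD, n = 3 and 2). It fell by 1.71 ± 0.18 (adjusted p = 4.24e-09) while those enzymes rose, and its change with Dex on LPS was not called (-0.06 ± 0.18, adjusted p = 0.838). Cyb5a fell by 1.19 ± 0.18 with LPS and rose by 1.76 ± 0.18 with Dex on LPS, whereas Cyb5b, also a cytochrome b5, rose by 0.95 ± 0.15 with LPS. Acat1, the mitochondrial thiolase, fell by 0.58 ± 0.18 and rose by 0.68 ± 0.18 with Dex on LPS, and Nus1, a subunit of dolichol synthesis, rose in both, by 0.42 and 0.48.

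Of 12 tested genes of SREBP processing and sterol-regulated degradation (14 listed), 5 rose and 3 fell with LPS in wild type and 4 rose and 5 fell in labelled AMPKa1-/- BMDMs, beside the same shares of all genes. With Dex on LPS none rose and 5 fell in each genotype, where 17.5% and 18.4% of all genes fell. Syvn1, a ubiquitin ligase of the endoplasmic reticulum, rose by 0.72 ± 0.17 with LPS and Pgrmc1, a partner of SCAP, fell by 1.04 ± 0.13. Erlin1 and Ufd1, which serve the degradation of sterol enzymes, fell with Dex on LPS by 0.90 and 0.30 in wild type and by 0.68 and 0.23 in labelled AMPKa1-/- BMDMs.

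Of 20 tested other genes of fatty acid synthesis and activation (28 listed), 10 rose and 5 fell with LPS in wild type and 11 rose and 5 fell in labelled AMPKa1-/- BMDMs, where 19.9% and 20.2% of all genes rose and 35.8% and 44.1% fell. Acsl5 had the clearest rise (2.50 ± 0.13, adjusted p = 1.32e-15), and Me1, which supplies NADPH for synthesis, rose by 1.45 ± 0.24 with LPS and fell by 1.2 ± 0.24 with Dex on LPS. Hacd4, a dehydratase of the fatty acid elongation cycle, fell from a mean of 56.9 ± 1.95 to 2.28 ± 0.816 FPKM with LPS (-4.16 ± 0.31), its relative Hacd2 rose by 1.21 ± 0.12 with Dex on LPS, and the ketoacyl-CoA reductase Hsd17b12 rose by 0.83 ± 0.12 with LPS and fell by 0.62 ± 0.12 with Dex on LPS. Acss1, which activates acetate in mitochondria, fell from 17 ± 2.37 to 1.48 ± 0.736 FPKM (-2.88 ± 0.20).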

How the data were processed

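RNA of BMDMs was sequenced from 35 libraries. The authors deposited FPKM values for 47069 Ensembl genes per library. The submitters' processing notes name TopHat2 2.0.12, Bowtie2 2.2.3, HTSeq 0.6.1 and DESeq2, and the builds GRCm38 and mm10, without roles. Symbols and positions came from GENCODE M21 (GRCm38), with 46488 identifiers matched, and promoters from RefSeq (GRCm38.p6).

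FPKM values are not counts. Library totals were read from the FPKM steps of weak genes with the mean transcript length of each gene. Of the values under 10 fragments in genes with 1 transcript, 93.2% to 94.8% were whole within 0.001 fragments (73.1% to 77.3% in all genes), so counts were not rebuilt. Replicates of a group correlated at 0.967 to 0.993, and no libraries shared identical values.

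The 11354 genes that averaged 1 FPKM or more over the 35 libraries were fitted with limma 3.58.1 in R 4.3.3 on log2(FPKM + 1), all 12 groups sharing 1 spread (empirical Bayes with trend, 2-sided, Benjamini-Hochberg at 0.05). A fold change on this scale understates that of weak genes. The genes and lists were chosen with earlier results of these data known. Genes are named by role, with values by library for the 8 with the smallest adjusted p and, chosen after their values were seen, for others such as Scap, Scd2, Srebf2 and Elovl5, and up to 3 of each other list with the smallest p for LPS and for LPS + Dex against LPS in wild type. The fit was run on simulated data in which libraries varied independently and a small set of genes changed in a single group. Those data cannot tell how it does where same-numbered libraries deviate together or many genes change. Same-numbered libraries labelled AMPKa1-/- deviated together in vehicle, Dex, LPS and LPS + Dex (every correlation over 0.1). Those of wild type did for LPS + Dex against LPS (0.113 and 0.429 for replicates 2 and 3). Each other wild type comparison had at least 1 correlation below 0. The reported fit had no term for the replicate number, so its errors and p-values leave out any pairing, and the number entered only in the block alternative. What a replicate number stands for is not given in the sources used here. The p-values measure the spread between these cultures. The alternatives were a pseudocount of 0.1, other level filters, median centring, quantile normalization, fewer groups, no trend, the replicate block and leaving out each library. Shared 50-base words were counted in GENCODE transcripts. Python 3.11.15, numpy 2.4.6, pandas 2.3.3 and matplotlib 3.10.9 were used for tables and figures.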

Additional observations from a re-analysis of the deposited data

How the results depend on the processing

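Of the 162 calls of a gene in a comparison, 119 held in every alternative, among them 25 of 30 for LPS against vehicle in wild type and 27 of 30 in labelled AMPKa1-/- BMDMs. For LPS + Dex against LPS 1 of 8 (Elovl5) did in wild type and 6 of 17 in labelled AMPKa1-/- BMDMs. Counts of called genes moved by over 1.5 times as follows. For LPS + Dex against LPS, wild type had 4 with no filter and 4 with only the groups compared, and labelled AMPKa1-/- had 7 with only the groups compared. For Dex against vehicle wild type had 3 with no filter. For DAMPs against vehicle wild type had 2 with a pseudocount of 0.1 and 0 with only its genotype or only the groups compared (limma, with 10 of the 33 and 1099 of 11354 genes at an unadjusted p under 0.05 in the reported fit), and labelled AMPKa1-/- had 0 with no filter, only its genotype or only the groups compared (4 of 33 and 1509 of 11354 at an unadjusted p under 0.05) and 2 with median centring or quantile normalization. For DAMPs + Dex against DAMPs labelled AMPKa1-/- had 3 with no filter or only its genotype. The causes were not tested. Leaving out 1 library at a time gave, for wild type and labelled AMPKa1-/-, 26 to 29 and 28 to 30 genes for LPS, 3 to 5 and 4 to 5 for Dex, 2 to 11 and 12 to 24 for LPS + Dex against LPS, 26 to 30 and 22 to 25 for LPS + Dex against vehicle, 0 to 2 and 0 to 1 for DAMPs, and 4 to 6 and 3 to 5 for DAMPs + Dex against DAMPs. A lone LPS library left in wild type was assumed to vary like the other groups. After median centring the fall of Insig2 in labelled AMPKa1-/- BMDMs turned to 0.00815 for LPS and 0.000268 for LPS + Dex against vehicle.

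With the replicate block, DAMPs against vehicle in wild type had 3 called genes and DAMPs + Dex against DAMPs in wild type 8. No other count moved by over 1.5 times. In the first, the deviations of same-numbered libraries from their group means correlated at 0.338, 0.471 and -0.14 for replicates 1, 2 and 3. The second had 0.354, 0.396 and -0.307. In labelled AMPKa1-/- BMDMs, where same-numbered libraries deviated together, the counts for LPS, Dex and LPS + Dex did not change with the block. The alternative without both replicate 3 libraries was chosen after seeing the data. A depth of 15835627 to 31952112 fragments limits Fdps, Fads2 and Scd1, which had few fragments without LPS.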

Other observations

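Of 6 oxysterol genes 2 were tested, Ch25h, which rose, and Cyp27a1, which fell. In wild type LPS both had log2 fold changes of larger absolute size than any of the 33 synthesis genes. Ch25h, which makes 25-hydroxycholesterol, had a mean of 1.51 ± 1.28 FPKM in wild type vehicle, 52.9 ± 24.8 in LPS and 0.0726 ± 0.0639 in LPS + Dex (SD, n = 3, 2 and 3), a rise of 4.47 ± 0.34 and a fall of 5.57 ± 0.34. Cyp27a1, which makes 27-hydroxycholesterol, fell from 121 ± 13.3 to 0.783 ± 0.0346 FPKM with LPS (-6.09 ± 0.22, adjusted p = 1.06e-18) and was 3.63 ± 1.15 FPKM in LPS + Dex. The 10 LXR factors and targets (nuclear receptors that sense oxysterols) had 2 rises and 6 falls with LPS in wild type and 2 and 7 in labelled AMPKa1-/- BMDMs, where 19.9% of all genes rose and 35.8% fell in wild type and 20.2% and 44.1% did in labelled AMPKa1-/- BMDMs. Nr1h3 itself, which encodes LXR alpha, rose by 1.80 ± 0.13 and fell by 1.13 ± 0.13 with Dex on LPS, while its known target Pltp fell by 2.89 ± 0.21 with LPS. Arl4c fell by 2.0 ± 0.16 with LPS and by a further 1.75 ± 0.16 with Dex, and Rxrb fell by 0.84 ± 0.12 and rose by 0.84 ± 0.12.

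Of 12 tested genes of glycerolipid and sterol ester storage (14 listed), 1 rose and 8 fell with LPS in each genotype, where 35.8% and 44.1% of all genes fell. The rise was Dgat2, which makes triglyceride, from 2.83 ± 0.547 to 30.7 ± 0.332 FPKM in wild type (3.06 ± 0.31). Nceh1, a cholesteryl ester hydrolase, fell by 3.10 ± 0.24 and Plin3, a lipid droplet coat protein, by 1.11 ± 0.09, and Pnpla2, a triglyceride lipase, fell by 0.85 ± 0.24 with LPS and rose by 0.77 ± 0.24 with Dex on LPS. Of 14 cell cycle genes 11 fell with LPS in each genotype, beside those same shares, 8 in wild type and 13 in labelled AMPKa1-/- BMDMs fell with Dex (all genes 14.9% and 16%), and 3 and 13 fell with DAMPs (all genes 0.793% and 2.24%). With DAMPs all 14 lay below 0 in both genotypes. At an unadjusted p under 0.05 (limma) there were 12 and 14, beside 1099 and 1509 of all 11354 genes. No genotype difference in the response to Dex or DAMPs was called among the 14. Mcm7, Ccnb2 and Ccna2 were among those that fell with LPS, while Mki67 and Tyms rose in wild type.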
